A study of Mus musculus with 51 samples.

Results

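Blood vessels of the hippocampal layers were followed through 7 genes of the endothelium and the vessel wall, Slc2a1, Cldn5, Flt1, Kdr, Tek, Pecam1 and Vtn. All probe sets carrying these symbols in the annotation of the array were taken, which gave 11 of the 22626 probe sets tested, with 3 for Flt1, 2 each for Slc2a1 and Vtn and 1 for each of the other genes. Endothelial cells line every vessel, and in the brain they seal it with tight junctions, so that glucose and other nutrients enter the tissue through transporters. Receptors for vascular endothelial growth factor (VEGF) and for the angiopoietins control the growth and stability of the vessel, and pericytes in the shared basement membrane cover its outside. Capillaries run between the neuronal cell bodies of the hippocampus, so a captured cell layer holds vessels as well as neurons.

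The granular layer of the dentate gyrus (DG) and the pyramidal cells of CA1 and of CA3 had been cut out by laser from 17 female mice aged 4.5 months, and each subfield of a mouse gave 1 array. Of these, 6 were double-negative mice (DN) with neither transgene, 5 were tTA mice with only the tetracycline transactivator under the CaMKIIα promoter, and 6 were rTg4510 mice, which carry that driver and a responder for human tau with a dementia mutation. All were littermates on a mixed background that includes FVB/N. The driver acts in forebrain neurons, so no transgene was aimed at the vessels. The comparison of rTg4510 with tTA mice therefore asks what mutant tau adds to the driver, and that of tTA with DN mice what the driver adds by itself.

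Values are log2 signals, on which a difference of 1 is a factor of 2. Prnp, which otherwise separated rTg4510 from the other genotypes, lay on the side opposite to the label in 5 of 51 arrays. These 5 were all those of the mouse labelled DN mouse 4, and from the DG the ones labelled rTg4510 mouse 3 and DN mouse 5. All were kept under their labels, and values without them are given only where said. Neurons were measured strongly throughout (mean signal of 9 neuronal genes per array from 8.82 to 9.86), and the marker genes of the dentate granule cells lay between 6.58 and 8.34 in the DG arrays and between 1.81 and 5.48 in the arrays of the other subfields. Markers of CA1 and CA3 did not separate their arrays in this way. Those of CA1 ran from 3.74 to 8.4 in CA1 arrays, from 4.01 to 5.95 in the DG and from 3.19 to 4.17 in CA3. Those of CA3 ran from 6.86 to 7.91 in CA3 arrays, and reached 6.88 in CA1 and 6.75 in the DG.

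The vessel genes ranged from well measured to hardly detected. Of the 11 probe sets 6, those of Slc2a1 and Vtn, 1 of Flt1 and that of Tek, had a mean signal above the median of all probe sets, and the other 5 lay below it. Signals of different probe sets cannot be compared as amounts of RNA, so each was set against 33 probe sets of olfactory receptors, genes hardly used in the hippocampus, whose mean signals had a 95th percentile of 2.10. That level rests on means over arrays, and how often an olfactory receptor exceeded it in single arrays is not given here. Both probe sets of Slc2a1 and the Flt1 probe set 1454037_a_at lay above that level in all 51 arrays. The other Flt1 probe sets, 1451756_at and 1419300_at, did so in 48 and 40 arrays, and those of Vtn in 46 (1455098_a_at) and 50 (1420484_a_at). Pecam1, the adhesion molecule CD31 that defines endothelium in histology, exceeded it in 10 of 51 arrays and Kdr, the main signalling receptor for VEGF, in 23. Cldn5, the claudin of the endothelial tight junction, exceeded it in 41 arrays and Tek, the angiopoietin receptor Tie2, in 49. Of the markers that define endothelium, Pecam1 and Kdr were thus at or near that level in most arrays. In bulk layers, fewer endothelial cells and less RNA per endothelial cell cannot be told apart.

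**Figure D1:**
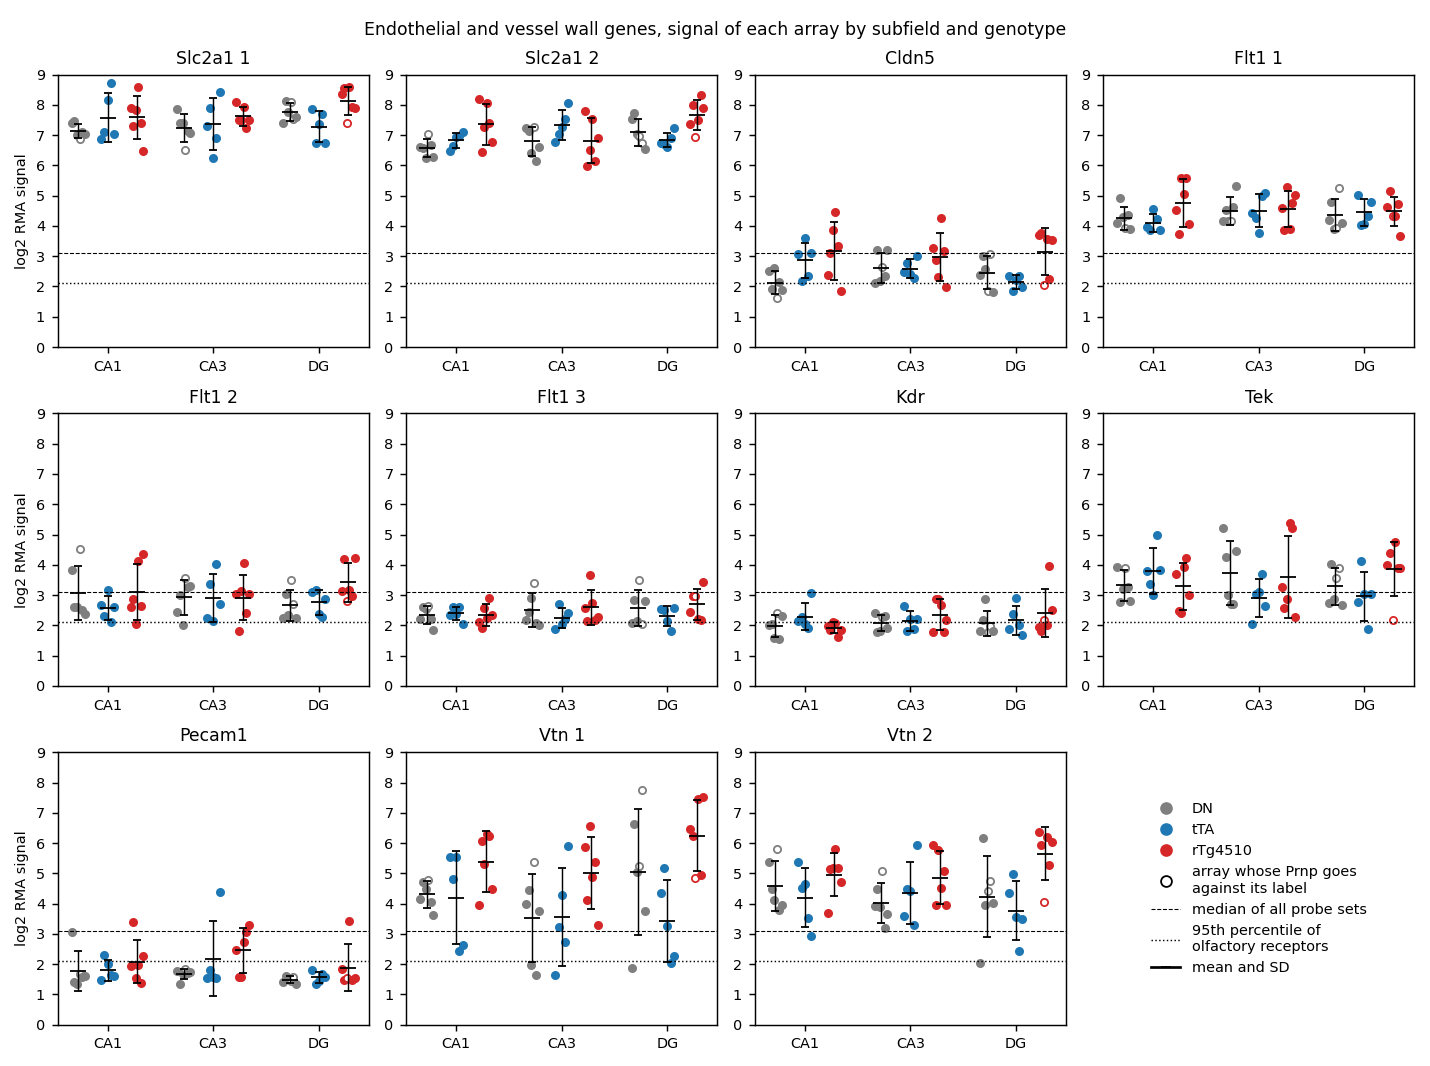
Log2 signal (vertical axis) of the 11 probe sets in every array, by subfield (horizontal axis) and genotype (colour), with the mean and SD of each group. Dashed lines give the median of all probe sets and dotted lines the 95th percentile of olfactory receptors (2.10), and hollow symbols mark the 5 arrays in doubt. Probe sets of 1 gene are numbered by mean signal, so that Vtn 1 is 1455098_a_at, Slc2a1 1 is 1426600_at and Flt1 1, 2 and 3 are 1454037_a_at, 1451756_at and 1419300_at. Vtn 1 spread most within groups in the DG, and Pecam1 and Kdr stayed near the dotted line in most arrays.

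Against tTA mice, rTg4510 mice had higher signals of Vtn and, in the DG, of Slc2a1 and Cldn5, but no vessel gene passed the test. In limma, with p-values adjusted by Benjamini-Hochberg across every probe set, 0 of the 11 probe sets had an adjusted p under 0.05 in CA1 (0% of all probe sets did), 0 in CA3 (0.00442%), 0 in the DG (0%) and 0 in the mean over the subfields of each mouse (0%). By Fisher's LSD none passed either. At an unadjusted p under 0.05 limma counted 1 of 11 in CA1 (3.97% of all probe sets), 0 in CA3 (5.91%), 6 in the DG (5.71%) and 4 in the mouse means (5.35%), and every one of them was higher in rTg4510. Over all probe sets, 2.08%, 2.65%, 2.54% and 2.58% met that threshold and were higher. Fisher's LSD counted 0, 0, 5 and 3. The vessel genes were chosen with earlier results of these data known. Here and below, the shares of all probe sets therefore describe the arrays and give no independent test of the vessel genes.

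The median difference over the 11 probe sets was 0.31 in CA1, 0.28 in CA3, 0.84 in the DG and 0.36 in the mouse means, where the median over all probe sets lay between −0.03 and −0.01. Differences were above 0 in 8 of 11 probe sets for CA1 (46.9% of all probe sets), 10 for CA3 (44.7%), 11 for the DG (49%) and 11 in the mouse means (44.3%). These are counts of related genes on the same arrays, with several probe sets for some genes. Because of how the genes were chosen, an excess over the share of all probe sets is no separate evidence.

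**Figure D2:**
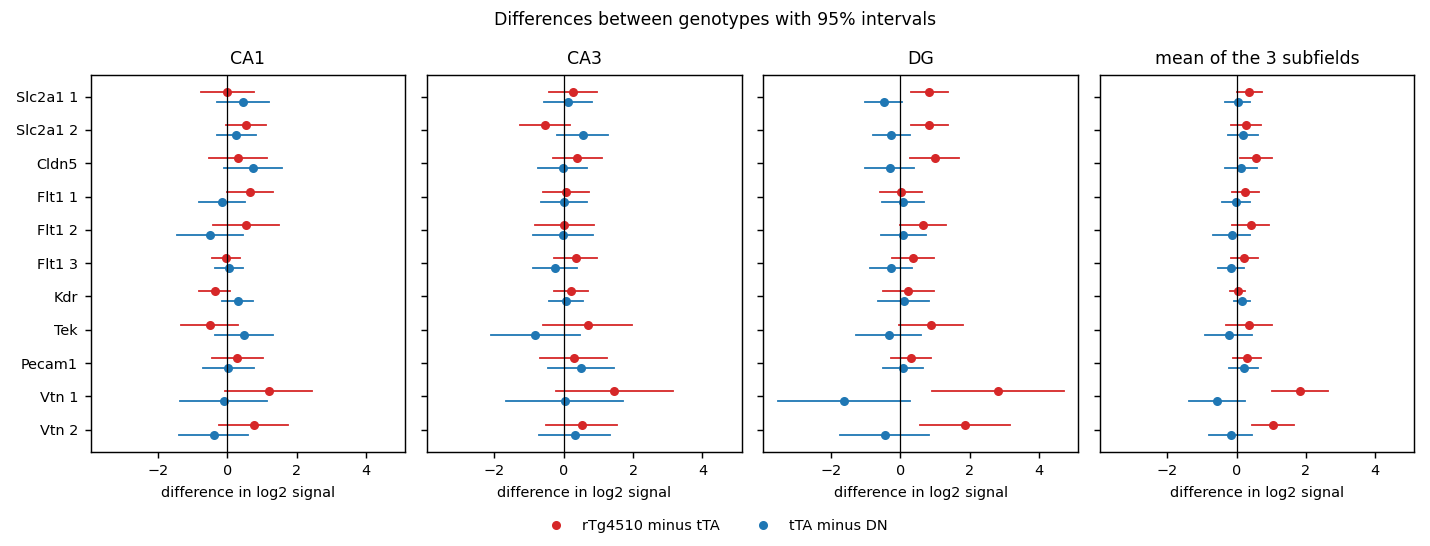
Difference in log2 signal (horizontal axis) of each probe set (vertical axis) between rTg4510 and tTA mice (red) and between tTA and DN mice (blue), with 95% intervals from limma that are not adjusted for the number of probe sets. The red point of Vtn 1 (1455098_a_at) lies farthest to the right in all 4 panels, and in the DG both Slc2a1 probe sets stand near 0.84.

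Vtn encodes vitronectin, an adhesive glycoprotein of plasma and extracellular matrix whose transcript in the brain comes largely from pericytes. At 1455098_a_at in the DG, the 5 tTA mice read 4.36, 5.18, 3.26, 2.04 and 2.28, and the 6 rTg4510 mice ran from 4.84 through a median of 6.34 to 7.51. Of the rTg4510 arrays 4 lay above every tTA array and the others overlapped them. The difference was 2.82 ± 0.90 (SE, adjusted p = 0.764). At 1420484_a_at in the DG, tTA mice read 4.36, 4.99, 3.57, 2.43 and 3.50 and rTg4510 mice ran from 4.04 through 5.99 to 6.37, a difference of 1.88 ± 0.61 (SE, adjusted p = 0.764).

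In CA1 the difference in Vtn was 1.19 ± 0.59 (SE, adjusted p = 0.999) at 1455098_a_at and 0.76 ± 0.47 (SE) at 1420484_a_at. In CA3 the values were 1.46 ± 0.79 (SE, adjusted p = 0.843) and 0.51 ± 0.48 (SE). The groups overlapped in both subfields, since at 1455098_a_at tTA mice 1 and 3 in CA1 (5.55 and 5.54) read above 3 of the 6 rTg4510 mice, and tTA mouse 5 in CA3 (5.92) above 5 of them.

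Averaged over the 3 subfields of a mouse, the groups no longer overlapped. At 1455098_a_at the tTA mice stood at 3.85, 4.41, 4.36, 2.41 and 3.62, and the rTg4510 mice from 5.10 through 5.49 to 6.22. At 1420484_a_at they stood at 4.44, 4.66, 4.21, 3.08 and 4.12, against 4.90 through 5.10 to 5.51. The differences were 1.82 ± 0.38 (SE, adjusted p = 0.504) and 1.05 ± 0.29 (SE, adjusted p = 0.854), with 6 of 6 rTg4510 mice above every tTA mouse at both probe sets. Such a separation was found in 0.208% of all probe sets. DN mice overlapped both groups at 1455098_a_at, from 3.34 to 5.27, and the highest of them were mouse 2 and the mouse labelled DN mouse 4 (5.14).

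Slc2a1 encodes GLUT1, which carries glucose across the endothelium and is also present in astrocytes. In the DG the probe set 1426600_at read 7.85, 6.74, 7.37, 7.68 and 6.75 in tTA mice and 7.39 through 8.15 to 8.58 in rTg4510 mice, with 5 of 6 above every tTA array. The second probe set, 1426599_a_at, read 6.73, 6.71, 6.61, 6.92 and 7.22 in tTA mice and 6.94 through 7.71 to 8.32 in rTg4510 mice, again with 5 of 6 above. Both differed by 0.84 (SE 0.25, adjusted p = 0.691). The array below was in each case the one labelled rTg4510 mouse 3, whose label was in doubt.

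The probe sets of Slc2a1 parted in the other subfields. In CA1 they differed between rTg4510 and tTA by 0.00 ± 0.36 (SE) at 1426600_at and 0.53 ± 0.27 (SE) at 1426599_a_at, and in CA3 by 0.26 ± 0.32 (SE) and −0.53 ± 0.34 (SE). DN mice in the DG ran from 7.39 through 7.69 to 8.12 at 1426600_at, with their median between those of tTA (7.37) and rTg4510 mice.

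Cldn5 in the DG read 2.36, 1.85, 2.20, 2.33 and 1.98 in tTA mice, where 3 of 5 arrays were above the olfactory receptor level. In rTg4510 mice it ran from 2.06 through 3.56 to 3.75, with 4 of 6 above every tTA array. The difference was 0.997 ± 0.33 (SE, adjusted p = 0.764) in the DG, 0.31 ± 0.39 (SE) in CA1 and 0.39 ± 0.34 (SE) in CA3. In the mouse means it was 0.56 ± 0.22 (SE, adjusted p = 0.911), with 5 of 6 rTg4510 mice above every tTA mouse.

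The receptors showed no common pattern. Flt1, which encodes VEGF receptor 1, differed by 0.66 ± 0.31 (SE, adjusted p = 0.999) in CA1 at 1454037_a_at, by 0.06 ± 0.31 (SE) in CA3 and by 0.03 ± 0.29 (SE) in the DG. Its probe set 1451756_at differed by 0.53 ± 0.45 (SE) in CA1, 0.02 ± 0.41 (SE) in CA3 and 0.66 ± 0.31 (SE, adjusted p = 0.868) in the DG. The third, 1419300_at, differed by −0.05, 0.35 and 0.38 in the same order (SE 0.19, 0.29 and 0.29). The largest difference was thus in CA1 for the first probe set and in the DG for the others, and the symbol also covers transcripts of the soluble and the membrane form, which were not told apart here.

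Tek differed by −0.51 ± 0.39 (SE) in CA1, 0.69 ± 0.61 (SE) in CA3 and 0.89 ± 0.44 (SE, adjusted p = 0.873) in the DG. In the DG tTA mice read 2.76, 4.12, 3.02, 1.87 and 3.04, and rTg4510 mice ran from 2.17, again the array labelled mouse 3, through 3.94 to 4.76. Kdr differed by −0.37 ± 0.21 (SE) in CA1, 0.21 ± 0.23 (SE) in CA3 and 0.24 ± 0.34 (SE) in the DG. Its rTg4510 group in the DG held 1 array at 3.96, of mouse 5, and the others between 1.82 and 2.51.

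Pecam1 differed by 0.28 ± 0.35 (SE) in CA1, by 0.28 ± 0.46 in CA3 and by 0.32 ± 0.27 in the DG. Most of its values lay at the low end of the scale. In CA3 tTA mice read 1.56, 1.80, 1.59, 1.55 and 4.39, and rTg4510 mice ran from 1.57 through 2.61 to 3.29, with 4 of 6 above the olfactory receptor level. Without tTA mouse 5 the difference was 0.83. DN mice in CA3 ran from 1.36 to 1.84, and rTg4510 mice differed from them by 0.78 ± 0.43 (SE, adjusted p = 0.984). In the DG all tTA and DN arrays lay below the olfactory receptor level, and 1 of 6 rTg4510 arrays lay above it, that of mouse 4 at 3.42, without which the difference was 0.01.

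Without the 5 arrays whose Prnp went against the label, 7 of the 11 probe sets had an unadjusted p under 0.05 in the DG and none passed after adjustment. Leaving out the DG array labelled rTg4510 mouse 3 raised the DG differences to 3.10 and 2.20 for Vtn, 0.99 and 0.98 for Slc2a1, 1.21 for Cldn5 and 1.22 for Tek. That array was the lowest of its group in 7 of the 11 probe sets.

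Whether the genotype difference itself differed between subfields was tested on the differences between arrays of the same mouse. In limma none of the 11 probe sets passed in any pair of subfields (0% of all probe sets in each), and at an unadjusted p under 0.05 there were 2 for CA1 against CA3 (4.15% of all), 2 for CA1 against DG (4.82%) and 1 for CA3 against DG (6.42%). The genotype difference in CA1 minus that in the DG was above 0 in 1 of 11 probe sets (48.5% of all) with a median of −0.60, and that in CA3 minus the DG in 1 of 11 (46.4% of all) with a median of −0.58. The 2 tests share the DG arrays. A larger genotype difference in the DG was therefore not shown by a test for any vessel gene.

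The Slc2a1 probe set 1426599_a_at had the smallest p among these tests. Its signal in CA1 exceeded that in CA3 of the same animal by a mean of 0.55 in rTg4510 mice, while CA1 minus CA3 averaged −0.51 in tTA mice, so that the genotype difference was larger in CA1 by 1.07 ± 0.25 (SE, adjusted p = 1.0), with 6 of 6 rTg4510 mice above every tTA mouse (0.155% of all probe sets separated in this way). At the other probe set of the gene the same contrast was −0.26 ± 0.52 (SE), and the mean of both gave 0.40. For Tek the genotype difference in CA1 minus that in the DG was −1.40 ± 0.60 (SE, adjusted p = 0.99).

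The driver alone moved no vessel gene past the test. Between tTA and DN mice 0 of 11 probe sets passed in limma or in Fisher's LSD in CA1 (0% of all probe sets), 0 in CA3 (0%), 0 in the DG (0%) and 0 in the mouse means (0%). By either test 0 had an unadjusted p under 0.05, where limma gave 4.59%, 6.13%, 5.21% and 6.17% of all probe sets. The median difference was 0.05 in CA1, 0.02 in CA3, −0.26 in the DG and −0.02 in the mouse means. The widest contrast was that of Vtn at 1455098_a_at in the DG, −1.63 ± 0.90 (SE, adjusted p = 0.935), where DN mice ran from 1.87 through 5.16 to 7.77. The highest DN value was that of the array labelled mouse 5, and without the 5 doubted arrays the contrast was −0.90.

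Against DN mice, rTg4510 mice again had 0 of 11 probe sets past the threshold in limma or Fisher's LSD in each subfield and in the mouse means (0.00442% of all probe sets passed in CA1 and 0% in the others by limma). At an unadjusted p under 0.05 limma counted 2 in CA1 (5.39% of all probe sets), 0 in CA3 (3.94%), 4 in the DG (4.73%) and 6 in the mouse means (5.41%). These comparisons use the same rTg4510 arrays as those with tTA mice and are no separate evidence. Side by side, the mouse means differed from DN and from tTA by 1.25 and 1.82 for Vtn at 1455098_a_at, 0.87 and 1.05 at 1420484_a_at, 0.70 and 0.56 for Cldn5, 0.49 and 0.29 for Pecam1, 0.40 and 0.37 for Slc2a1 at 1426600_at and 0.46 and 0.28 at 1426599_a_at.

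In CA1 the largest difference between rTg4510 and DN mice after that of Vtn (1.09 ± 0.56, SE, at 1455098_a_at) was in Cldn5. DN mice ran from 1.62 through 2.04 to 2.60, tTA mice read 3.06, 2.17, 3.60, 2.36 and 3.10, and rTg4510 mice ran from 1.86 through 3.22 to 4.46. The difference of rTg4510 from DN was 1.05 ± 0.37 (SE, adjusted p = 0.859) and that of tTA from DN 0.74 ± 0.39 (SE, adjusted p = 0.998). Without the 5 arrays, which drops the mouse labelled DN mouse 4 and leaves the means of DN mouse 5 and rTg4510 mouse 3 to their other arrays, the mouse means of rTg4510 and DN differed by 1.80 and 1.20 at the Vtn probe sets, with adjusted p = 0.233 and 0.276. In the DG the difference at 1455098_a_at was 1.18 ± 0.86 (SE, adjusted p = 0.967) with all arrays and 2.19 (adjusted p = 0.681) without the 5.

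No vessel gene separated the subfields, which were compared within mice over all 51 arrays. Of the 11 probe sets 0 passed between CA1 and CA3 (4.68% of all probe sets did), 0 between CA1 and the DG (10.9%) and 0 between CA3 and the DG (13.9%). At an unadjusted p under 0.05 there were 0, 0 and 1, where all probe sets gave 15.9%, 21.9% and 25.9%. That 1 was Pecam1, higher in CA3 than in the DG by 0.45 ± 0.21 (SE, adjusted p = 0.176) and in 13 of 17 mice, with most arrays of both at the olfactory receptor level.

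Mean levels of Slc2a1 and Flt1 at their brightest probe sets lay closer across subfields than those of Vtn, and none of these differences passed the test. Slc2a1 at 1426600_at averaged 7.42 ± 0.62 (SD, n = 17) in CA1, 7.41 ± 0.55 in CA3 and 7.74 ± 0.53 for the DG. The order of DG, CA1 and CA3 did not hold beyond the spread (CA3 against DG −0.33 with a 95% interval from −0.72 to 0.05). Flt1 at 1454037_a_at averaged 4.38 ± 0.58, 4.52 ± 0.50 and 4.43 ± 0.47. Vtn at 1455098_a_at averaged 4.66 ± 1.13, 4.07 ± 1.51 and 4.99 ± 1.89, with CA3 below the DG by 0.92 (95% interval from −1.89 to 0.04, adjusted p = 0.214).

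How far the vessel genes moved together from array to array was described after removing the 9 means of genotype and subfield. The 2 probe sets of Vtn followed each other closely (r = 0.843 over 51 arrays, 3 from each mouse). Those of Slc2a1 did so less (r = 0.375), and those of Flt1 gave r from 0.00334 to 0.331. Over the 50 pairs of probe sets from different genes r ran from −0.22 to 0.438 with a median of 0.17, and 37 of the 50 were above 0. The highest was between Cldn5 and Vtn at 1455098_a_at, and all pairs with Kdr but 1 were below 0.

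Several vessel genes followed the mean level of other gene lists. Slc2a1 at 1426600_at followed 8 oligodendrocyte genes at r = 0.561, 9 astrocyte genes at r = 0.472 and 32 other endothelial genes at r = 0.413. At 1426599_a_at it followed the endothelial genes at r = 0.629, the astrocyte genes at r = 0.538 and the oligodendrocyte genes at r = 0.278. Vtn at 1420484_a_at followed the astrocyte genes at r = 0.583, the endothelial genes at r = 0.447 and 9 genes of pericytes and smooth muscle at r = 0.384. Tek followed 10 microglial genes at r = 0.575. Other lists stood as high in places. The microglial genes had r = 0.491 with Slc2a1 at 1426599_a_at and 0.415 with Vtn at 1420484_a_at. The pericyte and smooth muscle genes had r = 0.475 with Slc2a1 at 1426600_at and 0.461 at 1426599_a_at, and 11 matrix genes 0.464 and 0.386. These arrays share their amplification and tissue, and the values are descriptions.

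**Figure D3:**
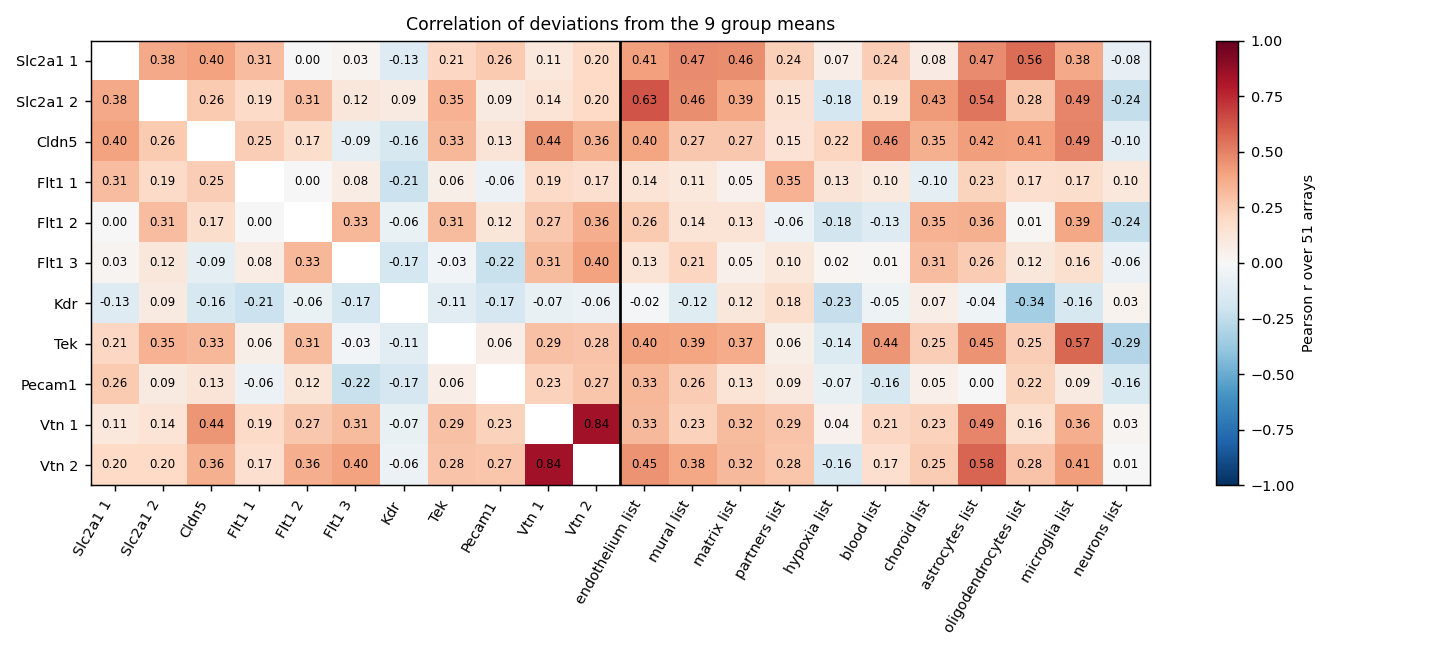
Pearson correlation over 51 arrays, after removal of the 9 group means, between the 11 probe sets (left of the line) and between each of them and the mean signal of other gene lists (right of the line; mural stands for pericytes and smooth muscle, partners for ligands, co-receptors and integrins). The 2 probe sets of Vtn stand out at 0.84, Kdr is pale or blue throughout, and the astrocyte column is red for Vtn, Slc2a1, Tek and Cldn5.

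The genes whose deviations were most like those of a vessel gene were seldom vascular. For Slc2a1 they were Abcg2, the drug efflux pump of brain endothelium (r = 0.6), Scg3 and Cldn11, the claudin of myelin. For Vtn they were C2cd2, Kcnj10, the potassium channel of astrocytes (r = 0.553), and Gfap, the intermediate filament of astrocytes (r = 0.545). For Cldn5 they were Casp8 (r = 0.611), Pltp and Shc3, for Flt1 Mnd1 (r = 0.537), Nfe2l3 and Aptx, and for Pecam1 Tm2d1 (r = 0.685), Tgfbi and Pafah1b3. For Tek they were Crb1 (r = 0.631), H2-M9 and Tnfrsf18, and for Kdr Alppl2 (r = 0.613), Usp27x and Triobp. They are the highest of 11807 genes over 51 arrays.

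No other gene of the vessel wall passed the test by genotype. Of 35 further endothelial genes 32 were measured. Their median differences between rTg4510 and tTA mice were 0.11 with 26 of 32 higher in CA1, 0.01 with 16 in CA3, and 0.04 with 19 in the DG. Ramp2, a receptor partner for adrenomedullin, differed by 0.05 ± 0.12 (SE) in the DG, Bsg, the basigin of the barrier, by 0.18 ± 0.41 and Tjp1, the scaffold of tight junctions, by −0.14 ± 0.29. These had the highest mean signals of the list, and how much of their signal came from endothelium was not tested. Of these 32 genes 11 had mean signals in the range of the olfactory receptors.

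Of 13 genes of pericytes and smooth muscle 9 were measured, with medians of 0.12, −0.24 and 0.05 in CA1, CA3 and the DG (7, 2 and 6 of 9 higher) and none past the threshold. Rgs5, a pericyte regulator of G protein signalling, differed by 0.70 ± 0.30 (SE), 1.50 ± 0.81 and 0.22 ± 0.35 in the same order of subfields, and Pdgfrb, the receptor that recruits pericytes, by 0.55 ± 0.23, 0.21 ± 0.18 and 0.06 ± 0.35. Kcnj8, a potassium channel subunit of pericytes, differed by 0.45 ± 0.38, −0.51 ± 0.24 and 0.28 ± 0.43, so that Rgs5 and Pdgfrb were the only genes of this list that were higher in CA3. Of 14 genes of basement membrane and matrix 11 were measured, with medians of −0.01, −0.10 and 0.10 in CA1, CA3 and the DG (5, 5 and 7 of 11 higher). Sparc, a matrix glycoprotein, differed by 1.43 ± 0.42 in CA3 (SE, adjusted p = 0.787) and 0.21 ± 0.41 in the DG, Col4a1, the collagen of basement membrane, by 0.56 ± 0.51 in the DG and the laminin chain Lamb1 by −0.64 ± 0.37.

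The ligands, co-receptors and integrins that act with the 7 genes numbered 15, of which 14 were measured and none passed by genotype. Their medians were −0.04, 0.02 and 0.05 in CA1, CA3 and the DG (6, 8 and 9 of 14 higher). Nrp2, a co-receptor for VEGF, differed by 0.69 ± 0.35 (SE, adjusted p = 0.879) in the DG, Nrp1 by 0.08 ± 0.29 and Itgav, the integrin chain that binds vitronectin, by −0.31 ± 0.23. Of 10 genes induced by low oxygen 9 were measured, with medians of 0.10, −0.01 and −0.11 in CA1, CA3 and the DG (8, 4 and 2 of 9 higher). In the DG Aldoa, Pgk1 and Ldha, enzymes of glycolysis, differed by −0.11, 0.28 and −0.25.

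Some genes of these lists passed the test between subfields. Itgav differed by −1.74 ± 0.27 (SE, adjusted p = 1.12e-05) in CA1 against the DG and by −2.14 ± 0.27 (adjusted p = 1.69e-07) in CA3 against the DG. Nrp2 was lowest in CA1, with differences of −1.36 ± 0.23 (adjusted p = 0.000166) from CA3 and −1.75 ± 0.23 (adjusted p = 1.16e-06) from the DG. Sparc was lower in CA3 than in the DG (−1.29 ± 0.25, adjusted p = 0.000214), and Ldha was higher in CA1 than in the DG by 0.72 ± 0.08 (adjusted p = 3.51e-08). Some genes of their lists went the other way. Col4a1 was higher in CA1 than in the DG by 1.02 ± 0.33 (adjusted p = 0.0412), where Sparc was lower (−0.86). In that contrast 3 of 9 low-oxygen genes passed as higher in CA1 and 2 as lower (10.9% of all probe sets passed). Of 11 matrix genes 1 passed as higher and 1 as lower, and of 14 ligands, co-receptors and integrins 0 and 2. Between CA3 and the DG (13.9% of all) 3 low-oxygen genes passed as higher in CA3 and 2 as lower. There 0 and 1 of the matrix genes and 1 and 1 of the ligands, co-receptors and integrins passed. Between CA1 and CA3 (4.68% of all) 1 of these 14 passed as higher in CA1 and 2 as lower. Itgav, Nrp2, Sparc and Ldha are also transcribed in neurons or glia. Of the other endothelial genes 3 of 32 passed between CA1 and the DG (10.9% of all probe sets did), namely Ocln (−1.18) and Ramp2 (−0.18), lower in CA1, and Cd34 (0.89), higher, and 2 of 32 between CA3 and the DG (13.9% of all), Ocln (−0.90) and Tfrc (0.57). Of 9 genes of pericytes and smooth muscle only Acta2 passed, higher in CA1 than in CA3 by 0.57 (adjusted p = 0.0296). Of 3 red cell genes only Hba-a1 passed. It differed by 1.02 in CA1 against CA3 (adjusted p = 0.02) and by −1.03 in CA3 against the DG (adjusted p = 0.00738). Ocln, Cd34, Tfrc and Acta2 were named after their values were seen.

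Some markers of blood and glia also had higher signals in the DG of rTg4510 mice, with none past the test, and most microglial markers had lower ones. Of 6 red cell genes 3 were measured, and the globin probe sets Hba-a1 and Hbb-b2 differed between rTg4510 and tTA mice by 2.02 ± 0.64 (SE, adjusted p = 0.757) and 1.75 ± 0.57 (adjusted p = 0.764), whereas Alas2 differed by −0.15 ± 0.27. Globin genes have near-identical copies, so these probe sets are uncertain as to the gene. The mean of the 3 ran from 3.63 to 4.91 in the DG of tTA mice and from 4.74 to 6.27 in rTg4510 mice. Its correlation with Vtn within groups was 0.206 and 0.167, and with Cldn5 it was 0.455.

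Of the glial lists, all 8 oligodendrocyte genes measured were higher in rTg4510 in the DG (median 0.77), and their mean ran from 3.71 to 4.74 in tTA and from 3.91 to 6.53 in rTg4510 mice. All 9 astrocyte genes were higher (median 0.27), with means from 6.02 to 6.35 and from 5.79 to 6.91, and 3 of 10 microglial genes were higher (median −0.43). Oligodendrocyte and astrocyte rises were not particular to the DG. In CA1 and in CA3 all 8 oligodendrocyte genes were higher, with medians of 1.19 and 1.13. Of the astrocyte genes 9 of 9 were higher in CA1 (median 0.25) and 6 of 9 in CA3 (0.14). Microglial genes went the other way there, with 9 of 10 higher in CA1 (median 0.89) and 7 of 10 in CA3 (0.33). None of these genes passed the test, none had a mean signal in the olfactory receptor range, and their part in the vessel results was not tested. The 5 choroid plexus genes measured, of 7, all had mean signals under the median of all probe sets, and 3 lay in the olfactory receptor range.

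**Figure D4:**
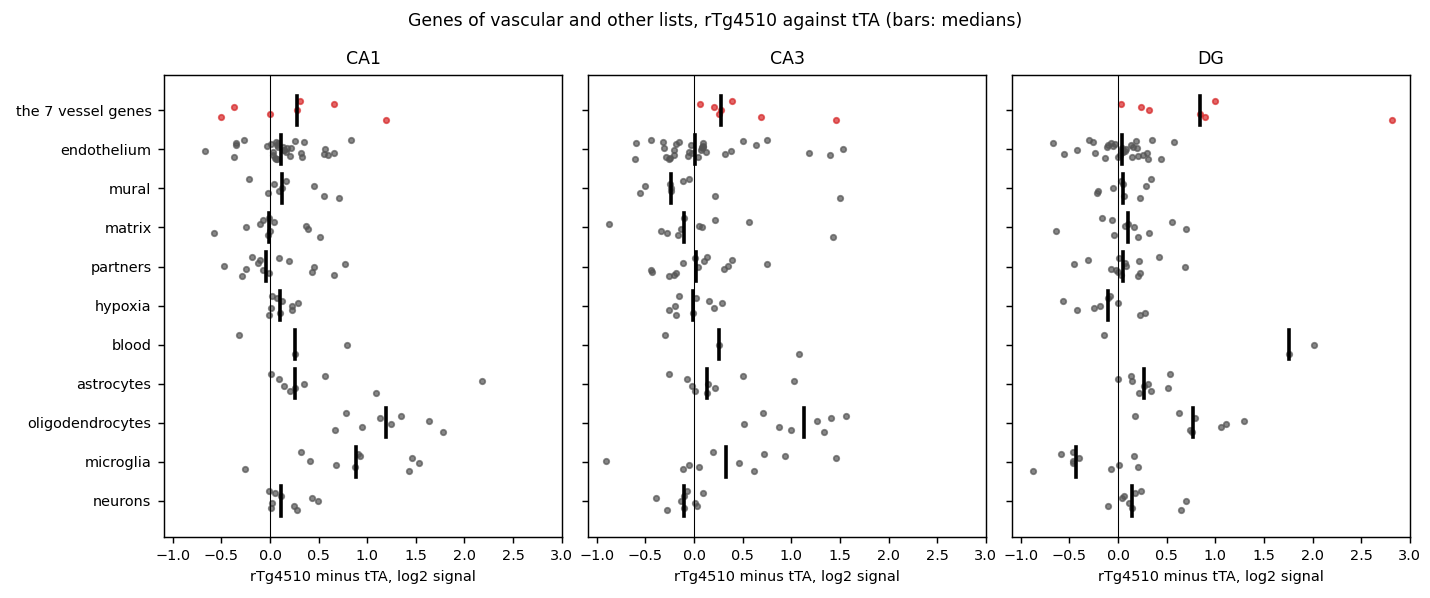
Difference in log2 signal between rTg4510 and tTA mice (horizontal axis) for each gene of 11 lists (vertical axis), at the probe set with the highest mean signal of each gene, with a panel for each subfield. Each point is a gene and each black bar a median. In the DG the median of the 7 vessel genes (red, 0.84) lies to the right of those of the other vascular lists, as do the medians of the red cell genes (1.75) and oligodendrocyte genes (0.77).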

How the data were processed

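RNA of laser-captured layers of 17 mice was amplified (Ovation Pico WTA) and hybridized to 51 Affymetrix HT-MG-430A arrays. The authors deposited RMA signals, which are background-corrected, normalized between arrays and summarized per probe set. They are described as anti-log in the methods, but the deposited values run from 0.711 to 12.3 and were used as log2. The RMA version, the arrays normalized together and any batch are not given in the sources used here.

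Genotype and mouse were taken from the sample titles. After 90 control probe sets were left out, 22626 were tested without a filter, of which 18003 have 1 symbol, 287 several and 4336 none. The probe set of Prnp was identified from supplementary tables of the study.

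Limma 3.58.1 (R 4.3.3) was fitted to the 3 genotypes of a subfield, to mouse means, to within-mouse subfield differences and, with mouse as a block, to subfields, with Benjamini-Hochberg adjustment at 0.05. Within a mouse, array deviations correlated at a mean r of 0.0492, and between mice at −0.021. No arrays were identical. Precision rests on 5 or 6 mice per group. The fit was tested on simulated data with noise drawn independently for each array. What the arrays of a mouse share was not simulated. Figures used matplotlib 3.10.9 in Python 3.11.15.

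The 7 genes and the lists were chosen with earlier results of these data known, and the olfactory receptor level after the data were seen. Named are all probe sets of the 7 genes, the 3 genes with the highest signal of 6 lists, the 3 genes most alike in deviations, and others where said.

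Alternatives were Fisher's LSD, an intensity trend, a filter at the 40th percentile, quantile normalization, median centring, a fit of 2 genotypes, omission of 5 arrays or of 7 (with the other arrays of the mouse labelled DN mouse 5), the mouse as a random block, no block, the mean of a gene's probe sets, and omission of each mouse.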

Additional observations from a re-analysis of the deposited data

Results flagged for a closer look

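In 7 of the 99 groups of 5 or 6 arrays, 1 array stood apart from the others by Dixon's criterion, which chance alone meets in about 1 of 20 groups. For Pecam1 these were DN mouse 1 in CA1 (3.08, nearest 1.67), DN mouse 2 in CA3 (1.36, nearest 1.68), tTA mouse 5 in CA3 (4.39, nearest 1.80) and rTg4510 mouse 4 in the DG (3.42, nearest 1.85). For Kdr they were DN mouse 3 (2.87, nearest 2.18) and rTg4510 mouse 5 (3.96, nearest 2.51), both in the DG. For Tek it was the DG array labelled rTg4510 mouse 3 (2.17, nearest 3.89), whose Prnp also went against its label.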

How the results depend on the processing

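Each of the 27 other settings was run on all or some of the 18 comparisons, which gave 459 combinations with the main fits. The filter at the 40th percentile left out Kdr and Pecam1. In none of the combinations did a tested probe set of the 11 pass. The lowest adjusted p in limma was 0.0743, for Vtn at 1455098_a_at between CA3 and DG without tTA mouse 5. Among 4947 values under other settings, 301 had the other sign than the value reported. For rTg4510 against tTA in the DG the median over the 11 probe sets ran from 0.62 to 0.98, and in the mouse means from 0.26 to 0.42. Leaving out 1 mouse moved the mouse mean differences to between 1.49 and 1.99 (Vtn at 1455098_a_at), 0.79 and 1.19 (1420484_a_at) and 0.36 and 0.69 (Cldn5). Without rTg4510 mouse 4 Cldn5 differed by 0.36, and without rTg4510 mouse 5 the DG difference of Kdr was −0.08. With probe sets averaged per gene, Slc2a1 differed by −0.14 in CA3. Between CA3 and DG, 2872 probe sets passed without the mouse block and 3137 with it, and none of the 11 in either. No array has a count behind it, and the low signals of Pecam1, Kdr and Cldn5 limit what these arrays can show.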
